A study of Danio rerio with 8 samples.

Results

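The genes described here build and remodel the extracellular matrix: collagens, laminins, fibronectins, a fibulin, matricellular proteins, matrix metalloproteinases and their inhibitors, lysyl oxidases, a leucine-rich proteoglycan and hyaluronan synthases. They were chosen by the start of the gene symbol (col and a digit, lama, lamb, lamc, fn1, fbn, fbln, sparc, mmp, timp, lox, tnc, thbs, postn, dcn, lum or has) among array probe sets with 1 gene symbol. That gave 52 of the 8793 named genes, measured by 64 probe sets, and each gene is represented by its probe set with the highest mean over the 8 arrays. The genes were chosen by name and not by their values, although earlier results of these data were known when the set was drawn up. The set holds 51 genes of matrix role and haspin, a mitotic histone kinase that the letters has also take. No fibrillin, lumican or collagen IV gene is among the 52.

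The arrays measured zebrafish embryonal rhabdomyosarcoma, a cancer of the skeletal muscle lineage. All 8 samples are cells sorted from tumours of fish of the CG1 strain (outcrossed 4 times). These fish carried myf5-GFP and mylz2-mCherry transgenes and were injected with rag2-kRAS12D as single-cell embryos. The myf5 promoter is active in early myogenic cells, and mylz2 (now mylpfa) encodes a fast muscle myosin light chain. Each of 2 tumours, grown in syngeneic recipients without fluorescent reporters, was sorted in repeated rounds of flow cytometry into 4 populations with 1 array each. They are GFP-only cells (GFP without mCherry), double-positive cells, mCherry-only cells and double-negative cells (neither reporter), so n = 2 tumours in every population. All groups come from tumours of fish injected with activated kRAS12D, and no array of normal muscle was analysed here. Whether every cell of a sorted sample carried the oncogene was not measured. The oncogene is driven by the rag2 promoter, which in zebrafish is active in lymphoid cells and also in some muscle progenitors. Recipient fish carry no reporter, so recipient cells would not make one. How many recipient cells each sorted sample held was not measured.

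Matrix proteins are secreted, and they surround and anchor cells. Fibrillar collagens form the tensile fibres of connective tissue, while laminins are trimers of an alpha, a beta and a gamma chain that polymerise in the basement membrane around each muscle fibre. Metalloproteinases cut these proteins, TIMPs inhibit the metalloproteinases, and lysyl oxidases crosslink collagen. In skeletal muscle much collagen is made by connective tissue cells between the fibres, while metalloproteinases such as Mmp9 and Mmp13 are also made by leukocytes.

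All values below are on a log scale taken to be log2. Its base is not stated and signal over background was not measured, so differences between log values are given and no folds. The 8 array medians lay between 4.54 and 4.71. A pair of arrays stood apart: in tumour 2, mCherry-only cells (mean rank correlation with GFP-positive arrays 0.648) and double-negative cells (0.653), against 0.805 to 0.849 for the other arrays. Most leading differences are given with and without that pair. Without it, the mCherry-only and the double-negative population rest on 1 array each, assumed to vary like the others wherever a test is given. Those arrays are of tumour 1, while GFP-only and double-positive cells keep both tumours. Differences without the pair therefore also hold the difference between the tumours. Mean levels of 13 fast muscle genes were 8.04 to 10.00 on the mCherry-positive arrays, against 3.76 to 6.64 on the mCherry-negative arrays, in the order the mCherry reporter implies. Mean levels of 12 myeloid genes were 2.64 to 4.50 on the GFP-positive arrays and 6.02 to 7.87 on the GFP-negative arrays, and none was at 0. Of the 52 matrix genes, 13 had a mean below the lower quartile of every array.

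The first comparison asks how the matrix genes of the GFP-positive populations (GFP-only and double-positive) stand against those of the GFP-negative populations (mCherry-only and double-negative). The largest positive differences belonged to sparc, the collagens col5a2a, col1a2 and col1a1a, the laminin chains lama4, lamb1a and lamc1, and the gelatinase gene mmp2. The largest negative ones belonged to mmp13a, fn1b, loxa and col9a3. None of the 52 passed limma's test at an adjusted p under 0.05, where 0.839% of all 15502 probe sets did. That fit did not pair the populations by tumour. With the tumour as a block, which pairs them, limma called 1 member, mmp13a (adjusted p = 0.0454, with 1.72% of all probe sets called). At an unadjusted p under 0.05 without the block, 8 members were on the higher side and 3 on the lower side (11.3% of all probe sets on either side). Fewer cells of a type and less RNA per cell cannot be told apart in such bulk samples. The median difference was 0.08 over the members and -0.01 over all probe sets, and 28 members had a positive and 24 a negative difference.

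**Figure D1:**
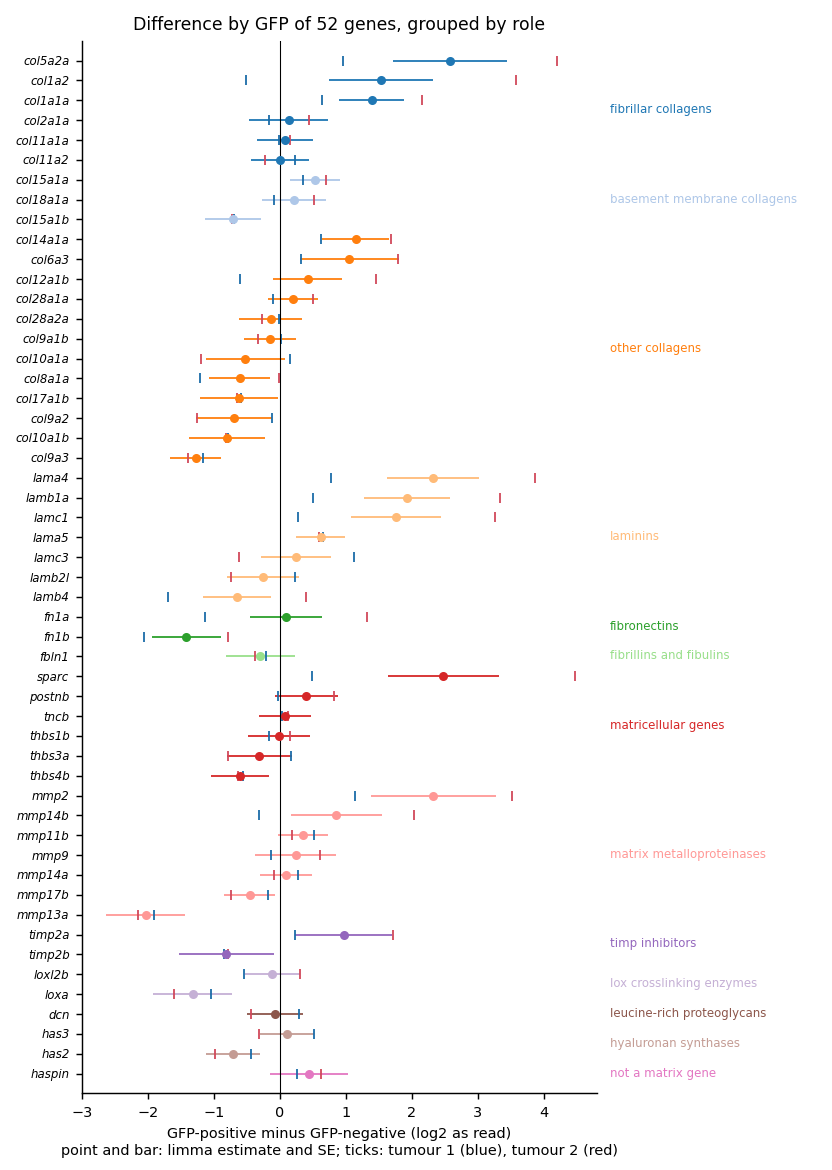
Difference between GFP-positive and GFP-negative arrays (log2 as read, horizontal axis) for each of the 52 genes, grouped by role. Points and bars are limma estimates with SE, and ticks are the differences within tumour 1 (blue) and tumour 2 (red). The positive side is led by col5a2a, sparc, mmp2 and lama4, with the tick of tumour 2 far to the right of that of tumour 1, and the negative side by mmp13a, whose 2 ticks lie close together.

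Sparc, a secreted glycoprotein that binds collagen and is made in quantity by matrix-producing cells, was measured by 1 probe set. In tumour 1, sparc was at 8.71 for GFP-only cells, 7.04 for double-positive cells, 5.95 for mCherry-only cells and 8.84 for double-negative cells. In tumour 2, sparc was at 8.89 for GFP-only cells, 8.62 for double-positive cells, 3.76 for mCherry-only cells and 4.81 for double-negative cells. GFP-only cells of both tumours were therefore high and mCherry-only cells low without overlap, while the double-negative arrays were on opposite ends, so GFP-positive and GFP-negative arrays overlapped. The GFP-positive minus GFP-negative difference of sparc was 2.48 ± 0.84 (limma SE, adjusted p = 0.314), and 0.92 without the pair of arrays that stood apart. The GFP-only minus mCherry-only difference was 3.95 ± 1.19 (adjusted p = 0.242), and 2.85 without the pair. The other matricellular genes (postnb, tncb, thbs1b, thbs3a and thbs4b) had GFP differences of at most 0.60 in size, the largest being the -0.60 of thbs4b.

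Of the 6 fibrillar collagen genes, 3 had large differences by GFP, namely col5a2a, col1a2 and col1a1a, and the cartilage collagen genes col2a1a, col11a1a and col11a2 did not. Col5a2a encodes a chain of collagen V, which sits inside collagen I fibrils. In tumour 1, col5a2a was at 8.60 for GFP-only cells, 6.64 for double-positive cells, 5.01 for mCherry-only cells and 8.31 for double-negative cells. In tumour 2, col5a2a was at 8.69 for GFP-only cells, 8.32 for double-positive cells, 5.05 for mCherry-only cells and 3.57 for double-negative cells. The GFP-only and mCherry-only arrays were nearly equal between tumours, and the double-negative arrays were far apart. The difference by GFP was 2.58 ± 0.87 (limma SE, adjusted p = 0.310) and 1.40 without the pair apart, and GFP-only minus mCherry-only was 3.62 ± 1.23 (adjusted p = 0.307). A second, dimmer probe set of col5a2a (1.04 to 3.49 on all arrays) did not follow, with a difference by GFP of -0.27.

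The members that encode chains of collagen I, the main fibre of connective tissue, were col1a2 and col1a1a. In tumour 1, col1a2 was at 4.94 for GFP-only cells, 4.34 for double-positive cells, 3.65 for mCherry-only cells and 6.67 for double-negative cells. In tumour 2, col1a2 was at 7.64 for GFP-only cells, 7.48 for double-positive cells, 2.69 for mCherry-only cells and 5.28 for double-negative cells. Col1a2 was lowest in mCherry-only cells of both tumours, and its second probe set had the same lowest population in each tumour, at 2.90 and 3.44. The mCherry-only minus double-negative difference of col1a2 was -2.81 (adjusted p = 0.713), and GFP-only minus mCherry-only was 3.12 ± 1.11 (adjusted p = 0.332). Its difference by GFP was 1.53 ± 0.79 (adjusted p = 0.513), -0.52 within tumour 1, 3.58 within tumour 2 and 0.94 without the pair apart.

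For col1a1a the 4 GFP-positive arrays did not overlap the 4 GFP-negative arrays. Values of col1a1a were 6.75 and 7.15 in GFP-only and 6.30 and 6.52 in double-positive cells, against 5.71 and 5.45 in mCherry-only and 6.08 and 3.93 in double-negative cells (tumour 1, then tumour 2). The difference was 1.39 ± 0.50 (limma SE, adjusted p = 0.335), and 0.79 without the pair apart. A second probe set of col1a1a disagreed, with overlapping groups and a difference of 0.27. Non-overlap by GFP was found for 3 of the 52 genes and for 5.23% of all probe sets. The others, named after their values were seen, were col14a1a, a collagen associated with fibril surfaces, on the higher side (difference 1.15, and 0.54 without the pair apart) and has2 on the lower side.

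**Figure D2:**
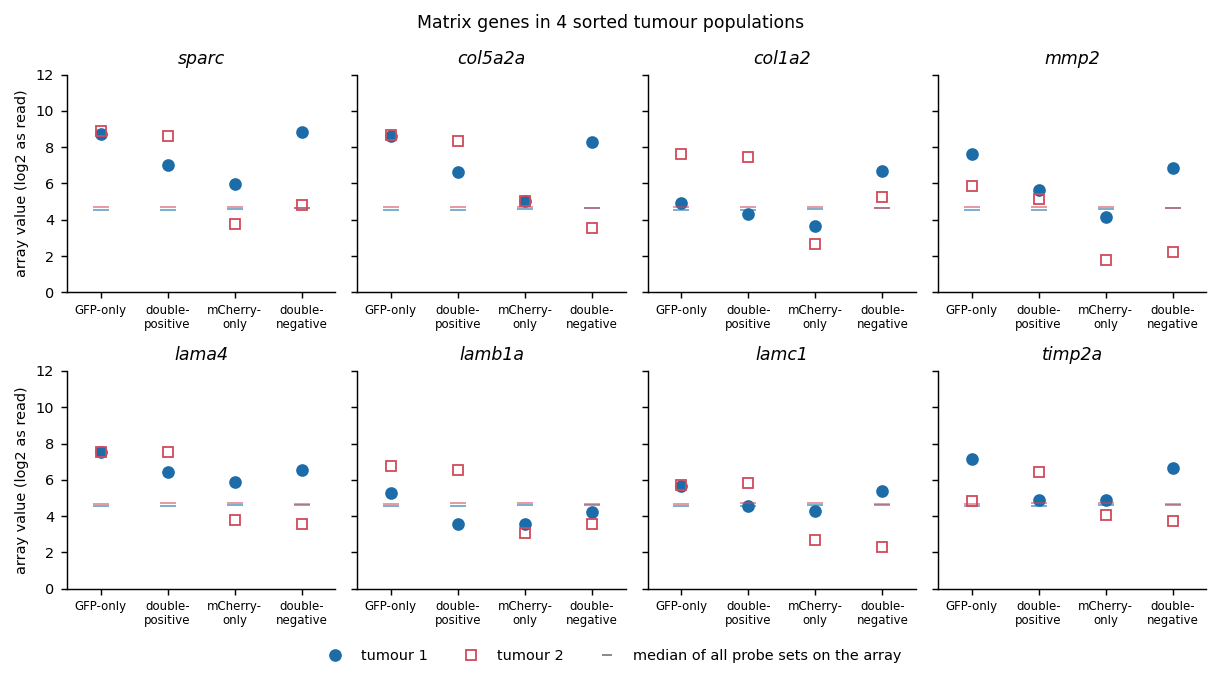
Array values (log2 as read, vertical axis) of 8 matrix genes in the 4 sorted populations, with tumour 1 as filled circles, tumour 2 as open squares and the median of all probe sets on each array as a short line. For sparc, col5a2a and mmp2 both GFP-only arrays lie above both mCherry-only arrays, and the double-negative arrays of the tumours are far apart (8.84 and 4.81 for sparc).

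Of 7 laminin genes, lama4, lamb1a and lamc1, which encode an alpha, a beta and a gamma chain, had differences by GFP of 2.32, 1.92 and 1.76, while lama5, lamb2l, lamb4 and lamc3 lay between -0.65 and 0.62. In tumour 1, lama4 was at 7.54 for GFP-only cells, 6.45 for double-positive cells, 5.89 for mCherry-only cells and 6.55 for double-negative cells. In tumour 2, lama4 was at 7.56 for GFP-only cells, 7.51 for double-positive cells, 3.77 for mCherry-only cells and 3.57 for double-negative cells. The double-negative cells of tumour 1 were just above its double-positive cells, which made the groups overlap. The difference of lama4 was 2.32 ± 0.70 (limma SE, adjusted p = 0.252) and 1.05 without the pair apart. A second probe set of lama4 spanned 5.48 to 6.75 with a difference by GFP of 0.73, so the 2 probe sets differed in size. They differed in order too: on the second, double-positive cells were highest in each tumour (6.75 and 6.71). Its GFP-only minus mCherry-only difference was 0.335 (limma, adjusted p = 0.83).

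The beta chain gene lamb1a was at 5.26 for GFP-only cells, 3.56 for double-positive cells, 3.59 for mCherry-only cells and 4.22 for double-negative cells of tumour 1. In tumour 2, lamb1a was at 6.77 for GFP-only cells, 6.55 for double-positive cells, 3.09 for mCherry-only cells and 3.55 for double-negative cells. GFP-only cells were highest in each tumour, while double-positive cells were high in tumour 2 and lowest in tumour 1. The difference by GFP was 1.92 ± 0.65 (limma SE, adjusted p = 0.310) and 1.63 without the pair apart. The 1.63 sets the GFP-positive arrays of both tumours, high in tumour 2, against the GFP-negative arrays of tumour 1. The next protein-coding gene along the chromosome, lamb4, had a difference of -0.65.

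Lamc1, which encodes the gamma chain shared by most laminins, was at 5.68 and 5.71 for GFP-only cells, 4.56 and 5.81 for double-positive cells, 4.31 and 2.68 for mCherry-only cells and 5.40 and 2.32 for double-negative cells (tumour 1, then tumour 2). Both GFP-negative arrays of tumour 2 were low, and in tumour 1 the double-negative cells were close to the GFP-only cells. The difference was 1.76 ± 0.68 (adjusted p = 0.366), and 0.59 without the pair apart. The beta chain gene lamb2l ranged from 5.49 to 7.58 over all arrays, with overlapping groups and a difference of -0.26.

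Of the 3 basement membrane collagens, col15a1a, an anchor between basement membrane and fibres, separated by mCherry. Values of col15a1a were 3.67 and 3.52 in double-positive and 3.58 and 2.80 in mCherry-only cells, against 5.16 and 5.29 in GFP-only and 4.54 and 4.61 in double-negative cells (tumour 1, then tumour 2). All 4 mCherry-positive arrays lay below all 4 mCherry-negative arrays, and the tumours were close to each other. It was the only 1 of the 52 members whose arrays did not overlap by mCherry, a pattern that 2.73% of all probe sets had. Col15a1a was above the array median on 2 of the 8 arrays. The mCherry-positive minus mCherry-negative difference was -1.51 ± 0.38 (limma SE, adjusted p = 0.267), -1.23 within tumour 1, -1.79 within tumour 2 and -1.3 without the pair apart. GFP-only minus mCherry-only was 2.04 ± 0.53 (adjusted p = 0.159), the lowest adjusted p of any member in that comparison. The other 2 genes of this class, col18a1a and col15a1b, had differences by GFP of 0.21 and -0.72. By mCherry, all 3 genes of the class had negative differences, from -1.51 to -0.37.

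Among the 12 other collagens, col9a3, a chain of a cartilage collagen, had its lowest values in GFP-only cells. Values of col9a3 were 1.76 and 2.05 for GFP-only cells, 2.59 and 3.01 for double-positive cells, 3.67 and 4.06 for mCherry-only cells and 3.01 and 3.79 for double-negative cells (tumour 1, then tumour 2). GFP-only cells were lowest and mCherry-only cells highest in both tumours, although GFP-positive and GFP-negative arrays touched, at 3.01 in 1 array of each. The difference by GFP was -1.28 ± 0.39 (limma SE, adjusted p = 0.256) and -0.99 without the pair apart, and GFP-only minus mCherry-only was -1.96 ± 0.55 (adjusted p = 0.196). These values are at the dim end of the arrays, where all lower quartiles lie between 3.38 and 3.75.

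Col6a3, a chain of the microfibrillar collagen VI of muscle interstitium, was at 6.16 and 4.93 for GFP-only cells, 2.26 and 5.58 for double-positive cells, 2.24 and 3.40 for mCherry-only cells and 5.55 and 3.54 for double-negative cells (tumour 1, then tumour 2). In tumour 1 both mCherry-positive arrays were low, and in tumour 2 both GFP-negative arrays were. Its mCherry-positive minus mCherry-negative difference was -1.68, with -3.61 within tumour 1, 0.26 within tumour 2 and -2.47 without the pair apart. Col12a1b, a collagen of fibril surfaces and muscle connective tissue, stayed between 5.16 and 7.87 on all arrays with a difference by GFP of 0.42 (adjusted p = 0.812), and of 0.20 without the pair apart. By GFP, 4 of the 12 other collagens had a positive and 8 a negative difference, from -1.28 for col9a3 to 1.15 for col14a1a, and 2 had an unadjusted p under 0.05.

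The fibronectin gene fn1b, whose product links matrix to integrins, was highest in double-negative cells. Values of fn1b were 1.80 and 3.73 for GFP-only cells, 3.96 and 4.16 for double-positive cells, 4.56 and 3.29 for mCherry-only cells and 5.32 and 6.17 for double-negative cells (tumour 1, then tumour 2). Both double-negative arrays lay above all others. GFP-only minus double-negative was -2.98 ± 0.74 (limma SE, adjusted p = 0.238). The difference by GFP was -1.42 ± 0.53 (adjusted p = 0.345), and -1.53 without the pair apart. The other copy, fn1a, had a difference by GFP of 0.09. Fbln1, which encodes fibulin-1 of elastic fibres and basement membranes, ranged from 3.83 to 6.18 with no order by population, and its 2 probe sets disagreed.

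Of 7 metalloproteinase genes, mmp2 and mmp13a had the largest differences by GFP, in opposite directions. Mmp2 encodes gelatinase A, made by mesenchymal cells, and Mmp13a is a collagenase. In tumour 1, mmp2 was at 7.64 for GFP-only cells, 5.62 for double-positive cells, 4.14 for mCherry-only cells and 6.85 for double-negative cells. In tumour 2, mmp2 was at 5.85 for GFP-only cells, 5.14 for double-positive cells, 1.76 for mCherry-only cells and 2.2 for double-negative cells. GFP-only cells were highest and mCherry-only cells lowest in each tumour, and tumour 2 was lower than tumour 1 in every population. GFP-only minus mCherry-only was 3.80 ± 1.33 (limma SE, adjusted p = 0.325), 2.61 without the pair apart, and adjusted p = 0.0562 with the tumour as a block. The difference by GFP was 2.33 ± 0.94 (adjusted p = 0.387), and 0.57 without the pair apart. The second probe set of mmp2 gave 2.58 for GFP-only minus mCherry-only and 1.14 by GFP. It did not keep the same order in tumour 2. There it was at 3.88 for GFP-only, 3.94 for double-positive, 3.24 for mCherry-only and 2.87 for double-negative cells. Its mCherry-only value was higher in tumour 2 than in tumour 1 (1.97).

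Mmp13a stood out in the double-negative cells. Values of mmp13a were 4.42 and 3.18 for GFP-only cells, 3.68 and 2.13 for double-positive cells, 3.31 and 3.33 for mCherry-only cells and 8.62 and 6.29 for double-negative cells (tumour 1, then tumour 2). The 2 double-negative arrays were far above all 6 others. Double-positive minus double-negative was -4.55 ± 0.85 (limma SE, adjusted p = 0.0530), mCherry-only minus double-negative was -4.14 (adjusted p = 0.0997) and GFP-only minus double-negative was -3.66 (adjusted p = 0.179). Without the double-negative array of tumour 2, double-positive minus double-negative was -5.72 and was called (adjusted p = 0.0254, with 0.194% of all probe sets called). Without the pair apart it was called as well (adjusted p = 0.0131, 0.368% called), and so was GFP-only minus double-negative (difference -4.82, adjusted p = 0.0407, 0.297% called). In these fits the double-negative population rests on the array of tumour 1 alone, where mmp13a was higher than in tumour 2. With the tumour as a block, which uses the pairing of the 4 populations of a tumour, mmp13a was called lower in all 3 comparisons, at adjusted p = 0.00616, 0.0138 and 0.0232. By mCherry the difference of mmp13a was -2.52 ± 0.60 (adjusted p = 0.224, and 0.0316 with the block), and -3.1 without the pair apart. By GFP that of mmp13a was -2.04 ± 0.60 (adjusted p = 0.239, and 0.0454 with the block), and -2.61 without the pair apart. It was the only member called in any comparison with the block, against 1.06% of all probe sets for double-positive, 0.761% for mCherry-only and 0.781% for GFP-only, each minus double-negative, 0.561% by mCherry and 1.72% by GFP.

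Mmp9, gelatinase B, was at 8.41 and 7.75 for GFP-only cells, 6.28 and 7.66 for double-positive cells, 5.05 and 6.60 for mCherry-only cells and 9.91 and 7.59 for double-negative cells (tumour 1, then tumour 2). It was lowest in mCherry-only cells of each tumour, and the spread between populations was wider in tumour 1. Mean mCherry-positive minus mCherry-negative was -2.02 ± 0.61 (limma SE, adjusted p = 0.485), with -3.50 within tumour 1 and -0.54 within tumour 2. Without the pair apart it was -2.99 and passed the test (adjusted p = 0.0488, with 0.387% of all probe sets called), with 1 array of tumour 1 for each of the mCherry-only and double-negative populations. The membrane-bound activator of gelatinase A, mmp14b, was at 8.24 and 8.14 for GFP-only cells, 6.85 and 8.39 for double-positive cells, 7.63 and 7.84 for mCherry-only cells and 8.10 and 4.63 for double-negative cells. Only the double-negative array of tumour 2 was low for mmp14b. The remaining metalloproteinase genes, mmp11b, mmp14a and mmp17b, had differences by GFP of 0.35, 0.09 and -0.46.

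**Figure D3:**
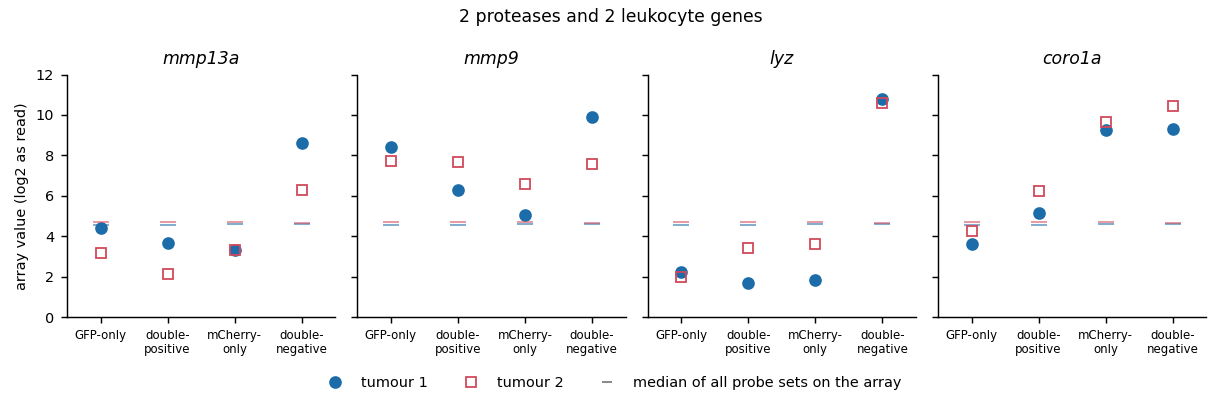
Array values (log2 as read, vertical axis) of the metalloproteinase genes mmp13a and mmp9 and of the leukocyte genes lyz and coro1a in the 4 sorted populations, with tumour 1 as filled circles, tumour 2 as open squares and array medians as short lines. Mmp13a and lyz are high on the double-negative arrays and low on the 6 others, while coro1a is high on the mCherry-only arrays too.

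The 12 measured myeloid genes (20 listed) had mean levels of 7.68 and 7.87 on the mCherry-only arrays and 6.98 and 6.02 on the double-negative arrays (tumour 1, then tumour 2). Their median level was 8.12 and 8.29 for mCherry-only cells, against 6.56 and 4.70 for double-negative cells, so the list as a whole was highest in mCherry-only cells. In mCherry-only minus double-negative cells, limma called 3 of the 12 higher and 1 lower (lyz), with a median difference of 2.40 (0.277% of all probe sets called). Lyz, the lysozyme of granulocytes and macrophages (named after its values were seen), was at 2.23 and 1.97 for GFP-only cells, 1.69 and 3.43 for double-positive cells, 1.85 and 3.60 for mCherry-only cells and 10.81 and 10.57 for double-negative cells (tumour 1, then tumour 2). Coro1a, a leukocyte actin regulator, was at 3.64 and 4.25 for GFP-only cells, 5.18 and 6.24 for double-positive cells, 9.27 and 9.64 for mCherry-only cells and 9.31 and 10.44 for double-negative cells. Lyz was high on the double-negative arrays alone, as mmp13a was, whereas coro1a was high in both GFP-negative populations. Of the 12, limma called 10 lower by GFP (0.839% of all probe sets called). It called 5 lower in GFP-only cells (0.516%) and 3 lower in double-positive cells (0.542%), each set against double-negative cells. Their part in the mmp13a values was not tested. The mean of 9 measured connective tissue markers (19 listed, the member col1a2 left out) was 4.08 to 4.65 on the GFP-positive and 3.95 to 4.17 on the GFP-negative arrays, with 0 called by GFP (1 at an unadjusted p under 0.05). No gene of the lists for endothelium (6 measured), skin (12), cartilage and bone (9) or early myogenic cells (8) was called by GFP without the block, with 1, 2, 0 and 4 at an unadjusted p under 0.05. Of all probe sets, 11.3% had an unadjusted p under 0.05 by GFP. With the block, 1 endothelial gene, mrc1a, was called lower by GFP (adjusted p = 0.0328, and 0.0804 without the block), with 1.72% of all probe sets called. Of the connective tissue markers none was at 0, and their part in the sparc and collagen values was not tested.

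The inhibitors did not follow one reporter. Timp2a was at 7.14 and 4.82 for GFP-only cells, 4.89 and 6.43 for double-positive cells, 4.91 and 4.09 for mCherry-only cells and 6.67 and 3.75 for double-negative cells (tumour 1, then tumour 2). In tumour 1 the mCherry-negative populations were high, and in tumour 2 the double-positive cells were. Timp2b was at 6.17 and 3.64 for GFP-only cells, 5.19 and 3.88 for double-positive cells, 6.59 and 4.69 for mCherry-only cells and 6.46 and 4.41 for double-negative cells. Tumour 2 was below tumour 1 for timp2b in every population. The difference by GFP was 0.97 for timp2a (adjusted p = 0.681) and -0.82 for timp2b (adjusted p = 0.728). Without the pair apart these differences were 0.03 and -1.81.

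Of the crosslinking enzymes, loxa was at 2.54 and 3.99 for GFP-only cells, 2.83 and 3.81 for double-positive cells, 3.95 and 5.35 for mCherry-only cells and 3.51 and 5.66 for double-negative cells (tumour 1, then tumour 2). Within each tumour both GFP-positive populations were below both GFP-negative ones, and all values of tumour 2 were above their counterparts in tumour 1. The difference by GFP was -1.33 ± 0.60 (limma SE, adjusted p = 0.447), and -0.44 without the pair apart. Loxl2b, a lysyl oxidase-like enzyme, stayed between 4.26 and 5.42 on all arrays. Decorin (dcn), a proteoglycan that binds collagen fibrils, stayed between 4.12 and 5.57, and its groups overlapped in every comparison by reporter. Has2, the main hyaluronan synthase of embryonic tissues, was at 2.90 and 3.30 in GFP-only and 3.15 and 3.32 in double-positive cells, against 3.58 and 4.45 in mCherry-only and 3.35 and 4.15 in double-negative cells. The arrays of has2 did not overlap by GFP, with a difference of -0.72 (adjusted p = 0.562), and -0.30 without the pair apart. Has3 had a difference of 0.10, and haspin, the gene without a matrix role, one of 0.44.

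The 2 tumours placed the same genes differently. Within tumour 1, the mCherry-positive minus mCherry-negative difference was -2.28 for sparc, -2.63 for col5a2a and -2.37 for mmp2, while the differences by GFP were 0.48, 0.96 and 1.14. Within tumour 2, the differences by mCherry were -0.66, 0.56 and -0.58 for the same genes, while those by GFP were 4.47, 4.20 and 3.52. In tumour 1 these genes were high in both mCherry-negative populations, and in tumour 2 in both GFP-positive populations. GFP-only cells were high and mCherry-only cells low in each tumour. The GFP-negative arrays of tumour 2 are the pair that stood apart, so in tumour 2 GFP and that pair cannot be told apart. Each population of each tumour has 1 array, so this difference between tumours was not tested.

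**Figure D4:**
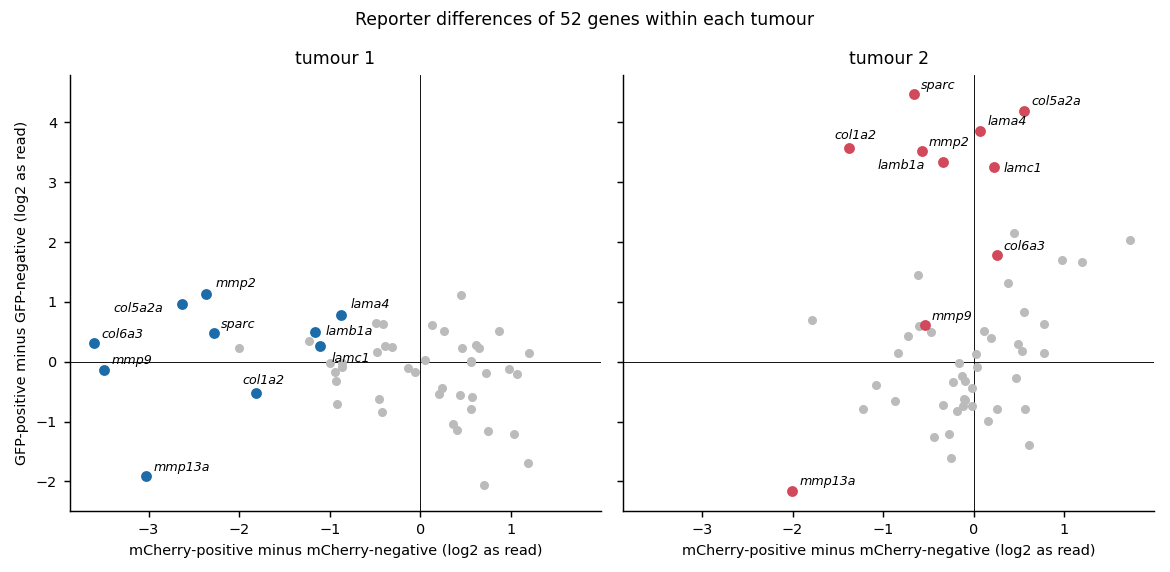
Difference by GFP (vertical axis) against difference by mCherry (horizontal axis) within tumour 1 and within tumour 2, both log2 as read, with 1 point for each of the 52 genes and 10 genes named. In tumour 1 sparc, col5a2a and mmp2 spread to the left (mCherry differences of -2.28 to -2.63), in tumour 2 they spread upward (GFP differences of 3.52 to 4.47), and mmp13a is at the lower left in both. The GFP-negative arrays of tumour 2 are the pair that stood apart.

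The calls by GFP depended on whether the double-negative array of tumour 1 was included. Without it, 3.25% of all probe sets were called in either direction, and limma called 6 members, all higher in GFP-positive cells: col5a2a (difference 3.76, adjusted p = 0.00537), sparc (3.48, 0.0179), lama4 (3.06, 0.0222), mmp2 (3.49, 0.0222), lamc1 (2.53, 0.0346) and col1a1a (1.92, 0.0381). With that array left out, the double-negative population rests on the array of tumour 2 alone, which belongs to the pair that stood apart. That population is assumed to vary like the others. With all arrays, second probe sets gave differences by GFP of -0.27 for col5a2a, 0.73 for lama4, 1.14 for mmp2 and 0.27 for col1a1a. Without the pair of tumour 2 that stood apart, 0 members were called by GFP. By mCherry, limma called 0 members without the block (0.284% of all probe sets), and mmp13a with it (0.561%). At an unadjusted p under 0.05 there were 3 (5.47% of all probe sets), all on the lower side: mmp13a, mmp9 and col15a1a. The median difference by mCherry was -0.04 over the members and 0.04 over all probe sets.

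In the pairs of populations, differences were most numerous between GFP-only and mCherry-only cells. There limma called 0 members (0.858% of all probe sets, and 1.6% with the tumour as a block, where 0 members were called too), and 11 had an unadjusted p under 0.05 (11.3% of all probe sets), 10 of them on the higher side. These 10 were sparc, mmp2, col5a2a, col1a2, col6a3, lama4, lamb1a, mmp9, lamc1 and col15a1a, with differences from 2.04 to 3.95 (1.39 to 3.64 without the pair apart), and the exception was col9a3. Second probe sets gave 0.335 for lama4 and -0.505 for col5a2a, against 2.92 for col1a2 and 2.58 for mmp2. Without either double-negative array, which adds to the estimate of the spread, 2 members were called, col5a2a and sparc (1.18% of all probe sets). The median over the members was 0.06, and over all probe sets -0.08.

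Between GFP-only and double-positive cells, limma called 0 members (0.00645% of all probe sets, and 0.116% with the block), and the only one at an unadjusted p under 0.05 (2.1% of all probe sets) was col15a1a, with a difference of 1.63. Double-positive minus mCherry-only gave 0 called (0.329%, and 0.858% with the block), and 2 members at an unadjusted p under 0.05 (7.69%), sparc with 2.98 (1.88 without the pair apart) and col1a2 with 2.74 (2.26).

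Against double-negative cells the counts were again 0 in limma's test without the block. With the block, mmp13a alone was called in each of these comparisons. The shares of all probe sets called with the block were 0.781% for GFP-only, 1.06% for double-positive and 0.761% for mCherry-only cells. For GFP-only cells 7 members had an unadjusted p under 0.05, 4 on the higher and 3 on the lower side (4.91% of all probe sets, with 0.516% called). The higher ones were lama4, lamb1a, col1a1a and col14a1a, and the lower ones mmp13a, fn1b and col9a3. Second probe sets gave 0.465 for lama4 and 1.06 for col1a1a in this comparison. Col14a1a was dim on all arrays, and its double-negative values were 3.32 in tumour 1 and 0.98 in tumour 2. Without the double-negative array of tumour 1, col5a2a was called in this comparison (difference 5.08, adjusted p = 0.0166, with 1.12% of all probe sets called). Its difference was 2.71 with all arrays and 0.34 without the double-negative array of tumour 2. For double-positive cells 4 members were counted so, 1 on the higher and 3 on the lower side (5.3%, with 0.542% called), namely col14a1a, and mmp13a, fn1b and col15a1b. Without the double-negative array of tumour 1, col5a2a was called here too (difference 3.91, adjusted p = 0.0438, with 1.16% called). Here its difference was 1.54 with all arrays, and -0.83, of opposite sign, without the double-negative array of tumour 2. In each of these fits 1 array stands for the double-negative population, so the sign of the double-positive difference rests on which array that is. For mCherry-only cells 5 were on the lower side and 0 on the higher side (6.17%, with 0.277% called), namely mmp13a, mmp9, col1a2, col15a1a and fn1b.

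The interaction of the reporters is the difference by GFP among mCherry-negative cells minus that among mCherry-positive cells. It was called by limma for 0 members and 0.0% of all probe sets, with or without the block. Fn1b (-3.12) and mmp13a (-3.24) were the 2 members with an unadjusted p under 0.05, against 2.3% of all probe sets. Both genes had their highest values on the double-negative arrays.

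The median over the members of the mean difference, tumour 2 minus tumour 1, was 0.15, with 0.03 after quantile normalization and 0.02 with the dimmest probe sets left out. Over all probe sets the median was 0.12 for GFP-only, 0.12 for double-positive, 0.14 for mCherry-only and 0.03 for double-negative cells. Of the 52 members, the number with a greater value in tumour 2 than in tumour 1 was 37 for GFP-only cells, 32 for double-positive cells, 26 for mCherry-only cells and 24 for double-negative cells. These are 71.2%, 61.5%, 50.0% and 46.2% of the members, against 54.7%, 55.4%, 56.0% and 51.0% of all probe sets in the same populations. The median absolute difference between tumours was 0.72, 0.70, 0.77 and 0.98 in these populations, against 0.65, 0.56, 0.68 and 0.84 over all probe sets. The largest mean differences, tumour 2 minus tumour 1, were -2.33 for mmp2, -1.95 for timp2b, 1.5 for loxa and -1.28 for mmp13a. Those of mmp2, timp2b and loxa had the same sign in all 4 populations, and that of mmp13a in 3 of 4. The second probe set of mmp2 went the other way in mCherry-only cells, at 1.97 in tumour 1 and 3.24 in tumour 2.

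Collagen needs a dedicated set of enzymes and chaperones in the secretory pathway before it can leave the cell. Of 26 such genes, listed with earlier results of these data known, 12 were measured. In GFP-only minus mCherry-only, 0 were called by limma (0.858% of all probe sets) and 6 had an unadjusted p under 0.05 (11.3%), all on the higher side. The median difference was 1.60 against -0.08 over all probe sets, and 1.27 without the pair apart. By GFP, 1 had an unadjusted p under 0.05 (11.3% of all probe sets), and 2 in double-positive minus mCherry-only (7.69%). In each remaining comparison 0 did, where 2.1% to 6.17% of all probe sets did. The genes named here were chosen after their values were seen. Crtap, a partner of the collagen prolyl 3-hydroxylase, was at 7.88 and 8.30 for GFP-only cells, 7.50 and 8.11 for double-positive cells, 6.47 and 4.72 for mCherry-only cells and 7.91 and 5.13 for double-negative cells (tumour 1, then tumour 2). As for sparc, the double-negative arrays were high in tumour 1 and low in tumour 2. Its GFP-only minus mCherry-only difference was 2.50 ± 0.90 (limma SE, adjusted p = 0.337), and 1.62 without the pair apart. Serpinh1b, the collagen chaperone Hsp47, was at 6.18 and 4.90 for GFP-only cells, 4.54 and 4.85 for double-positive cells, 3.94 and 3.56 for mCherry-only cells and 5.41 and 4.23 for double-negative cells. Its difference was 1.79 ± 0.64 (adjusted p = 0.332) and 1.60 without the pair apart, and mCherry-only cells were lowest in each tumour. The mean of the 12 genes was 6.06 and 6.12 for GFP-only cells, 5.35 and 6.06 for double-positive cells, 4.92 and 4.67 for mCherry-only cells and 5.83 and 4.85 for double-negative cells.

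**Figure D5:**
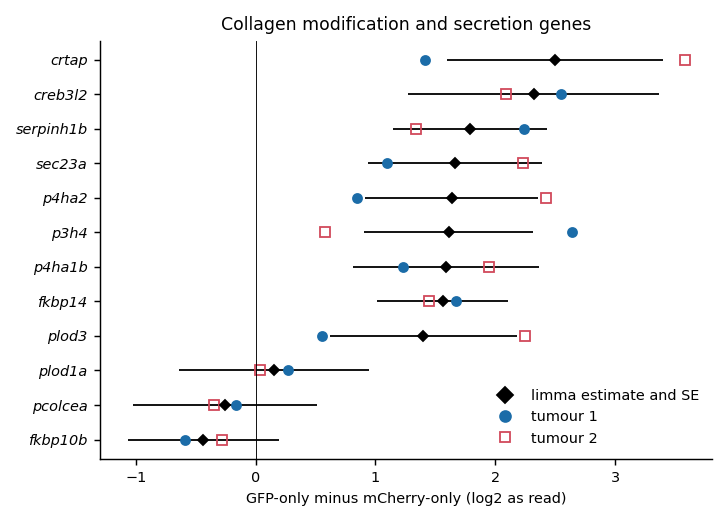
GFP-only minus mCherry-only difference (log2 as read, horizontal axis) of 12 genes of collagen modification and secretion. Diamonds and bars are limma estimates with SE, circles are tumour 1 and squares tumour 2. Crtap, creb3l2 and serpinh1b are on the positive side in both tumours, and pcolcea and fkbp10b on the negative side in both. Without the pair of arrays that stood apart, the difference was 0.575 for pcolcea and -0.2 for fkbp10b. There the GFP-only arrays of both tumours are set against the mCherry-only array of tumour 1.

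Of 11 measured matrix receptor genes (36 listed), limma called 0 in any comparison. The largest number at an unadjusted p under 0.05 was 2, in comparisons where 5.3% to 11.3% of all probe sets were counted so. Of 16 measured other matrix proteins (51 listed), 0 were called without the block. With the tumour as a block, vcanb, which encodes the large proteoglycan versican, was called lower in GFP-only cells when set against mCherry-only cells (difference -3.25, adjusted p = 0.0098, against 0.0956 without the block), and by GFP (difference -1.76, adjusted p = 0.0377). The block fit called 1.6% of all probe sets in GFP-only minus mCherry-only and 1.72% by GFP. Vcanb was at 2.72 and 4.21 for GFP-only cells, 3.74 and 4.87 for double-positive cells, 6.02 and 7.40 for mCherry-only cells and 4.34 and 4.82 for double-negative cells (tumour 1, then tumour 2). Both mCherry-only arrays were above all others.

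Among 11 measured other proteases and inhibitors (29 listed), 1 gene was called. Ctsba, which encodes the lysosomal protease cathepsin B, was at 7.40 and 6.84 for GFP-only cells, 7.25 and 7.03 for double-positive cells, 10.21 and 10.01 for mCherry-only cells and 6.96 and 6.11 for double-negative cells (tumour 1, then tumour 2). The mCherry-only arrays were alone in being high. Ctsba fell by 2.99 in GFP-only relative to mCherry-only cells (limma SE 0.55, adjusted p = 0.0382, with 0.858% of all probe sets called). Its mCherry-only minus double-negative difference was 3.58 (adjusted p = 0.0332, with 0.277% called). With the block, ctsd (cathepsin D) was called lower in GFP-only minus mCherry-only (difference -2.40, adjusted p = 0.0421, with 1.6% of all probe sets called). With the block, ctsba was called lower in double-positive minus mCherry-only too (difference -2.97, adjusted p = 0.0219, with 0.858% called). Mean levels of the 12 myeloid genes were 7.68 and 7.87 on the same mCherry-only arrays, against 2.64 to 6.98 on the others, and their part in the cathepsin and versican values was not tested.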

How the data were processed

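The authors deposited log-scale values, read here as log2, for 15502 probe sets on 8 arrays of total RNA, amplified and biotin-labelled per the labels (Ovation Pico WTA). How probes were summarised and arrays scaled, and the base of the logarithm, are not stated in the labels used here. A natural logarithm would leave limma's p-values as they are. Of the probe sets, 10795 had 1 gene symbol, 135 several and 4572 none in the array annotation. Zebrafish often has 2 copies of a gene, and a probe set may read both. At most 0.677% of values were identical between any 2 arrays.

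Values were used as deposited. A model of 4 population means was fitted over all probe sets with limma 3.58.1 under R 4.3.3 (lmFit, eBayes), with 4 residual and 6.07 prior degrees of freedom, and two-sided p-values were adjusted by Benjamini-Hochberg within each of 9 comparisons at a threshold of 0.05. They measure the spread between 2 tumours and treat the arrays as independent. The tumour number in the labels pairs the populations, and deviations of same-tumour arrays correlated at -0.029 to 0.492, so the tumour as a block was fitted beside it (3 residual degrees of freedom). In simulated data for GFP-only minus mCherry-only (15502 probe sets), 17 of 100 differences of 2 and 96 of 100 differences of 4 were recovered, with 13 false calls. The simulated arrays were independent, with no tumour effect and no arrays that stood apart, so recovery in the real data may differ. The number of arrays limits the precision.

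Members and lists were chosen with earlier results of these data known. Named members were sparc, mmp2 and those called in the model of 4 population means, without or with the block. Added were the 12 with the largest difference by GFP, the 8 by mCherry, the 4 between tumours and the brightest of each role, which gave 24. Other lists give the genes called and at most 3 per cell type. Marker lists for endothelium, skin, cartilage and bone, and early myogenic cells were measured too. The alternatives were the block, quantile normalization, leaving out the dimmest 30% of probe sets, the mean of a gene's probe sets, and leaving out each array or the pair that stood apart. Sequences are not used here.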

Additional observations from a re-analysis of the deposited data

Results flagged for a closer look

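For 13 of the 52 members, both within-tumour contrasts of one tumour went in the direction opposite to both of the other tumour, 9 of them by mCherry and 4 by GFP. The share of all probe sets with this pattern was not counted, so the count is not read as a trait of the members. The largest gap by mCherry was that of timp2a, an inhibitor of metalloproteinases, with a mCherry-positive minus mCherry-negative difference of -2.0 in tumour 1 and 0.97 in tumour 2. That of mmp14b was -0.93 in tumour 1 and 1.73 in tumour 2, that of postnb (periostin) was -1.0 and 0.56, that of lamc1 was -1.11 and 0.23, and that of col18a1a was -0.86 and 0.12. In the other direction, the difference by mCherry was 0.97 in tumour 1 and -0.44 in tumour 2 for col9a2, 0.56 and -0.84 for col11a1a, 1.03 and -0.16 for col8a1a, and 0.37 and -0.25 for loxa. On the second probe set of postnb, the difference by mCherry did not change sign between the tumours.

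By GFP, the GFP-positive minus GFP-negative difference of fn1a was -1.14 in tumour 1 and 1.32 in tumour 2, and that of col12a1b was -0.62 and 1.45. For the laminin chain gene lamc3 it was 1.12 in tumour 1 and -0.62 in tumour 2, and for has3 it was 0.52 and -0.31. Another probe set of fn1a did not change sign by GFP between the tumours, while a further one did. With 1 array per population and tumour, these differences between the tumours were not tested, and the GFP-negative arrays of tumour 2 are the pair that stood apart.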

How the results depend on the processing

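Without an alternative, limma called no member in any of the 9 comparisons. With the tumour as a replicate block, 1 member was called in GFP-only, double-positive and mCherry-only, each minus double-negative cells, by GFP and by mCherry, and it was mmp13a each time. The block changed no other call. Quantile normalization gave 1 call in double-positive minus double-negative cells, again mmp13a (adjusted p = 0.0459, with 0.529% of all probe sets called). Leaving out the dimmest 30% of probe sets (32 members kept) gave the same call (adjusted p = 0.0488, with 0.737% of the kept probe sets called). Leaving out the pair that stood apart gave 1 member called in GFP-only minus double-negative (mmp13a), 1 in double-positive minus double-negative (mmp13a) and 1 by mCherry (mmp9). Leaving out each array in turn gave 0 to 6 calls by GFP, 0 to 2 in GFP-only minus mCherry-only, and 0 to 1 in GFP-only and in double-positive minus double-negative cells, with the extra calls coming from leaving out a double-negative array. With each array left out in turn, the difference of col5a2a by mCherry lay between -2.22 and 0.15, and the positive value came without the double-negative array of tumour 1 (-1.04 with all arrays). In all, 101 counts of members called under an alternative were 0, the same as reported. The median difference between the tumours, 0.15, was 0.03 after quantile normalization, 0.02 without the dimmest probe sets and 0.12 with the mean of a gene's probe sets. Of the differences of single genes 280 kept direction and side of the threshold and 17 came to pass it. The causes were not tested, other than that leaving out an array alters the estimate of the spread. Only 2 tumours, unknown signal over background and 1 array per population and tumour limit all differences.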
